A study of Rattus norvegicus with 24 samples.

Results

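In young rats, 19 transcripts had at least 4 times as many ribosome footprints per unit of RNA in liver as in brain. They are 19 of 22938 transcripts counted, and 7420 met the other conditions. The conditions were a mean of at least 5 CPM (counts scaled to a common library total) in RNA-seq in both young organs, and a value between 80 and 2000 in a second, length-like column that no header defines. Efficiency means the mean footprint CPM plus 0.05, divided by the mean RNA-seq CPM, with means over the 3 young libraries of an organ and assay. The members were thus chosen by the young footprint and RNA-seq values of both organs, which are given as description. The same quantities in old rats were not used in the choice and were tested. The study covers liver and brain of old rats aged 24 months and of young rats aged 6 months, each by ribosome profiling and by RNA-seq. There are 3 libraries in each of the 8 groups and 24 libraries in all. Animal codes in the titles are the same across organs and assays, so 3 old and 3 young rats gave all libraries, and the labels name no treatment or genotype.

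Ribosome profiling sequences the pieces of mRNA that ribosomes shield from RNase, whereas RNA-seq counts fragments of the whole transcript pool. The ratio of the first to the second is widely used as a measure of how heavily a message is loaded with ribosomes. It is set by initiation, by the speed of elongation and by the share of the RNA that is kept from ribosomes, and it does not tell these apart. Comparing 1 transcript between organs cancels its length. Liver devotes much of its translation to secreted plasma proteins and metabolic enzymes, and neurons carry some messages in granules in which translation is held back. The count files name transcripts by identifier alone, and 0 of the 19 members, like 0 of all 22938, were found in the gene table used here, so no gene names, roles or sequences are given.

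Library totals ran from 5259326 to 17584871 counts in ribosome profiling and from 14281043 to 28664906 in RNA-seq. The organ labels were checked with the 50 most abundant transcripts at least 32 times higher in young liver than in young brain RNA-seq, none of which is a member. In the brain of old rat 2 they reached 6.05% of their young liver level in footprints and 4.93% in RNA-seq. In the brains of old rats 1 and 3 they reached 0.410% and 0.333% in footprints and 0.114% and 0.166% in RNA-seq. In young brains the shares were 0.137% to 0.169% in footprints and 0.0931% to 0.103% in RNA-seq. The reverse list, 50 transcripts of brain in liver libraries, lay at 0.405% to 0.663% in footprints and 0.551% to 0.818% in RNA-seq. Both lists were chosen by young RNA-seq, so low shares in young RNA-seq follow from the choice and check no label. Results in old rats are therefore given with and without the brain libraries of old rat 2. In whole tissue, fewer cells of a type and less RNA per cell cannot be told apart. The p-values rest on the spread between these 3 animals within each organ and assay. Unless an animal block is named, the fits treat the libraries of the same animal as unrelated.

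The young organ ratio of efficiency had a median of 5.19 over the members and ran from 4.11 to 28.3, against a median of 0.832 over the 7420 transcripts. Nearest inside the limit were ratios of 4.11, 4.36 and 4.44, and nearest outside were 3.98, 3.89 and 3.86. A single further transcript, at 4.01, was left out by its value of 55 in the length-like column. In footprints the young liver exceeded the young brain for 17 of the 19 members, and in RNA-seq for 9, both as CPM of library totals. The members' median ratio of young liver over brain was 6.23 in footprints and 0.977 in RNA-seq. Over the 7420 transcripts it was 0.440 and 0.531, so the members stood above the typical transcript in both assays. These values chose the members and are description. The members fell into 4 kinds by their young levels, a division made after their values were seen. In CPM of library totals, 4 had over 10 times more RNA in liver, and 5 had RNA within 3-fold between organs with more footprints in liver. Another 2 had less RNA in liver with nearly equal footprints, and 8 had under 5 footprint CPM in both organs.

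**Figure D1:**
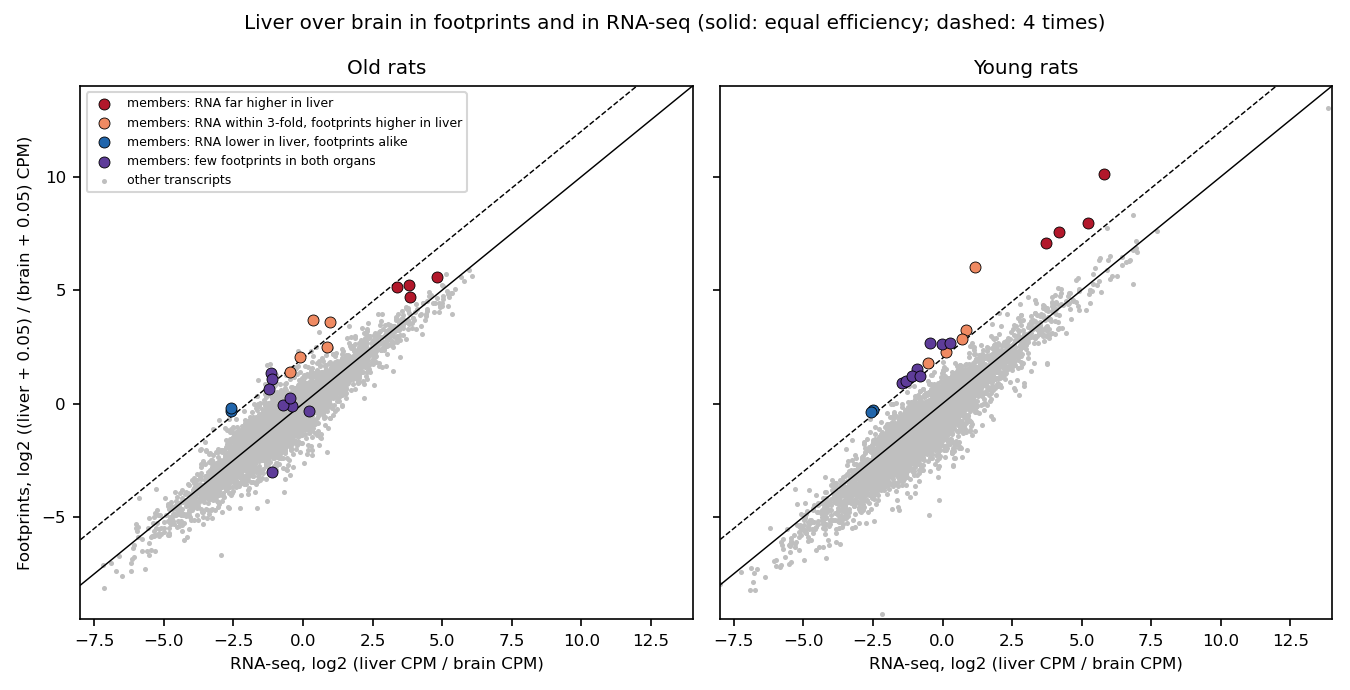
Each point is a transcript, placed by its liver over brain ratio in RNA-seq (x axis, log2 of CPM) and in footprints (y axis, log2 of CPM plus 0.05), for old rats on the left and young rats on the right. Coloured points are the 19 members by kind, all above the dashed 4-fold line in the young panel because they were chosen there, and 7 of them reach it in the old panel.

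Relative to the 7420 transcripts, most members had a low efficiency in brain, and part of them had a low one in liver too. In young rats the members' median efficiency was 0.691 in liver, against 0.728 over the 7420 transcripts, and 0.0850 in brain, against 0.885. These young values chose the members and are description. In old rats, which did not enter the choice, the members' median was 0.635 in liver, against 0.842 over the same transcripts. In old brain it was 0.237, against 0.870. Ranked among the 7420, the median member stood at percentile 32.3 in old liver and 3.85 in old brain. In the lowest 10% were 13 of 19 members in old brain and 7 of 19 in old liver. Tested within old brain, footprints relative to RNA-seq were lower than in the typical transcript for 13 members and higher for 1 (edgeR, adjusted p under 0.05). In the background, 33.2% of 10839 transcripts were called lower and 33% higher. Without the brain libraries of old rat 2 the counts were 17 lower, with 31.8% in the background, and 1 higher, with 31%. Within old liver 3 members were called higher, where 21.8% of all transcripts were, and 9 lower, where 24.1% were. With the animal as a block the liver counts were 8 higher and 10 lower, with backgrounds of 33.1% and 33.3%. Leaving out old rat 1 gave 2 higher and 5 lower, with backgrounds of 9% and 11.3%. Leaving out old rat 2 gave 2 and 6, with backgrounds of 13.3% and 17.3%. The 9 called lower in old liver were the 8 members with few footprints and ENSRNOT00000055628.

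**Figure D2:**
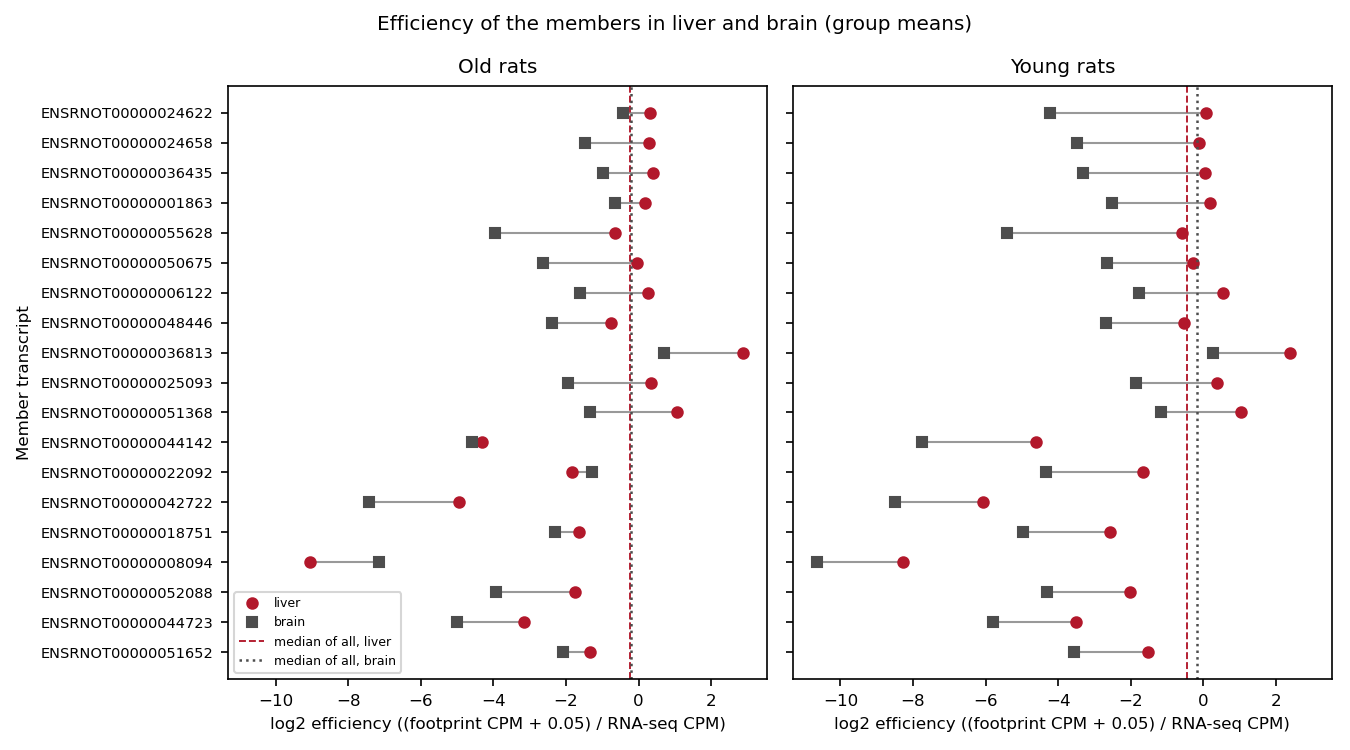
Efficiency of each member as the log2 of mean footprint CPM plus 0.05 over mean RNA-seq CPM, in liver (circles) and brain (squares), for old rats on the left and young rats on the right; vertical lines are the medians of the 7420 transcripts. In brain 18 of 19 members lie below the median at both ages, whereas in liver 10 lie below it and 9 above it at both ages. The young panel shows values that chose the members.

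In old rats the higher efficiency in liver was present for part of the members. The organ by assay interaction, fitted over 12 old libraries and 10839 transcripts, called 10 of the 19 members higher in liver and 0 lower (edgeR quasi-likelihood, Benjamini-Hochberg adjusted p under 0.05). Of all transcripts tested, 5.67% were called higher and 10.3% lower. The members' median log2 difference was 1.68, and that of all tested transcripts was -0.08. Without the brain libraries of old rat 2, 12 members were called higher, with a background of 3.24%, and 1 lower, with a background of 4.86%. The same 4-fold rule applied to the old libraries found 19 transcripts, 0.253% of 7510, and 7 of them were members, which is 36.8% of either list. Without the brain libraries of old rat 2 it found 26 transcripts, 0.353% of 7375, and 12 of them were members. That is 63.2% of the members and 46.2% of that list. Leaving out old rat 2 altogether also gave 12. The 12 transcripts on the full old list that are no members had young ratios from 0.561 to 2.63.

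Animal by animal, liver exceeded brain in all 3 old rats for 15 of the 19 members, against 26.5% of the 7420 transcripts, and by at least 4 times in all 3 for 5 members, against 0.108%. The median over members in old rats 1, 2 and 3 was 2.09, 1.54 and 2.48 on the log2 scale, where all 7420 had medians of -0.04, -0.02 and -0.12. In young rats 1, 2 and 3 the members' medians were 2.55, 2.34 and 2.54, and those of all transcripts were -0.18, -0.33 and -0.29. The old ratio of means was below the young one for 14 members and above it for 5. No test is given for this shift, since the young values were the ones selected.

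**Figure D3:**
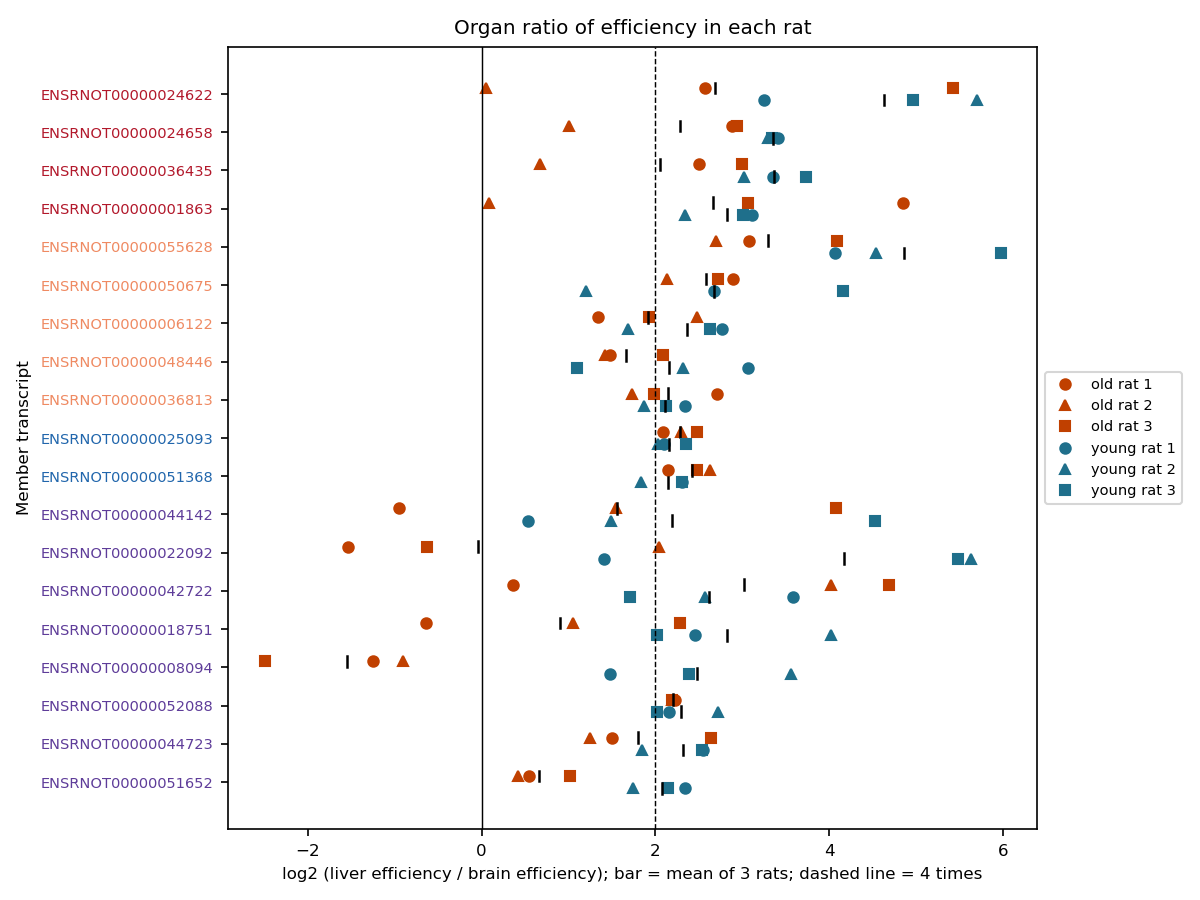
Organ ratio of efficiency, as log2 of liver over brain, for each member (rows) in each of the 3 old and 3 young rats, with short bars for the means and a dashed line at 4 times. Old rat 2 lies lowest of all 6 rats for each of the 4 members at the top, whereas ENSRNOT00000025093 and ENSRNOT00000051368 keep all old rats above 4 times, and ENSRNOT00000008094 has all old rats below equality.

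The members named first are 4 transcripts that were abundant in liver and scarce in brain, of which ENSRNOT00000024622 was the largest. Its footprints in liver stood at 595, 568 and 469 CPM in old rats 1, 2 and 3 and at 491, 619 and 783 CPM in young rats. In brain they stood at 1.71, 32.2 and 0.335 CPM in old rats and at 1.08, 0.177 and 0.313 CPM in young rats, from 9, 503 and 3 counts in old and 14, 1 and 3 counts in young libraries. Every brain library lay far below every liver library, and old rat 2 stood well above the other brains. In RNA-seq the liver values were 527, 411 and 366 CPM in old and 478, 562 and 759 CPM in young rats. Brain RNA-seq was 9.23, 24.2 and 13.0 CPM in old and 10.5, 10.7 and 10.9 CPM in young rats, so the young brains were nearly equal. The young brain level was thus 1.78% of the young liver level in RNA-seq and 0.0830% in footprints. The liver-enriched list lay at 0.0931% to 0.103% in the same RNA-seq libraries, which were used to choose that list for a low brain level.

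ENSRNOT00000024658, ENSRNOT00000036435 and ENSRNOT00000001863 had the same shape. The young brain level as a share of young liver was 0.724%, 0.516% and 0.391% in footprints and 7.57%, 5.43% and 2.63% in RNA-seq, in that order. Counts behind the young brain footprints were small, from 9 to 22 per library. In the brain of old rat 2 these 3 transcripts had 289, 302 and 386 footprint counts, whereas old rats 1 and 3 had 15 and 28, 14 and 19, and 2 and 10. Relative to the liver of the same animal, footprints in the brain of old rat 2 reached 5.67% for ENSRNOT00000024622, 4.46% for ENSRNOT00000024658, 4.38% for ENSRNOT00000036435 and 8.20% for ENSRNOT00000001863. The 50 liver-enriched transcripts in that library stood at 6.05% of their young liver level, and the part of this in the 4 members' values was not tested. ENSRNOT00000001863 also varied most in liver, where RNA-seq was 303, 244 and 47.1 CPM in old and 473, 211 and 125 CPM in young rats.

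**Figure D4:**
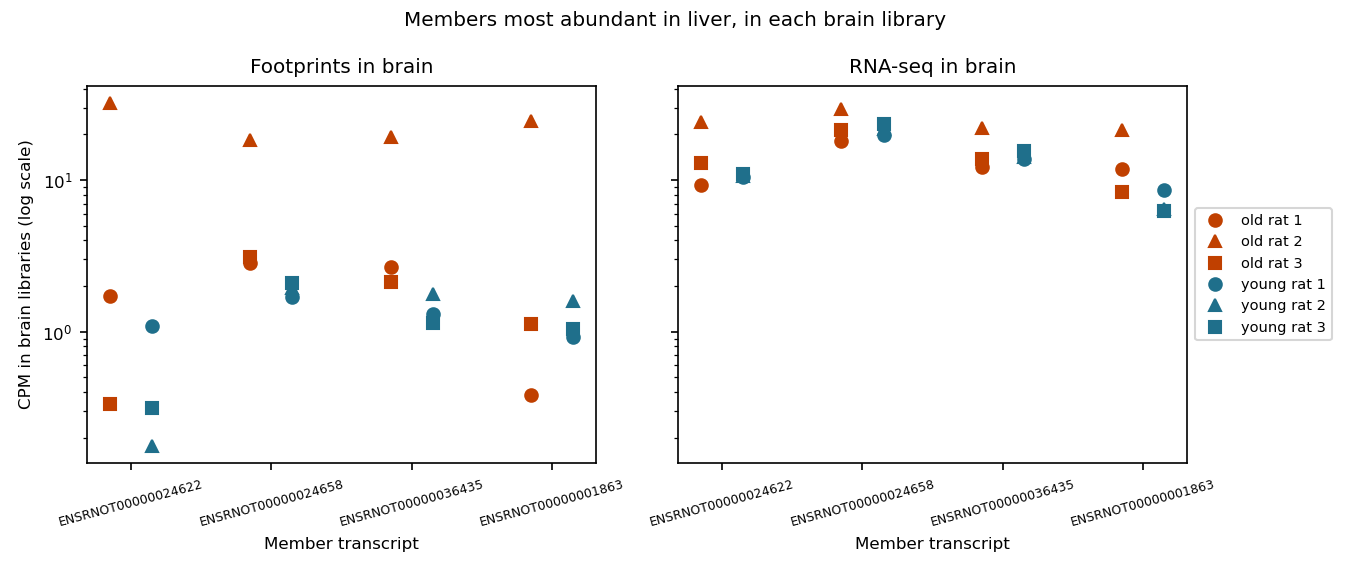
CPM (log axis) of the 4 liver-abundant members in the brain libraries, footprints on the left and RNA-seq on the right, for 3 old and 3 young rats. The footprints of old rat 2, between 18.5 and 32.2 CPM, stand apart from the other 5 brains, which reach at most 3.13 CPM, and in RNA-seq old rat 2 is also the highest for each transcript.

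With all old libraries, 0 of these 4 members were called for efficiency by edgeR, and 0 of the 4 at an unadjusted p under 0.05. ENSRNOT00000024622 had an old log2 difference of 0.68 (SE 1.67, adjusted p = 0.857), which was 4.02 without the brain libraries of old rat 2 (SE 0.616, adjusted p = 0.00551). ENSRNOT00000024658 had 1.68 (SE 1.04, adjusted p = 0.332) with all libraries and 3.03 (SE 0.724, adjusted p = 0.0351) without them. ENSRNOT00000036435 and ENSRNOT00000001863 had 1.31 and 0.71 with all libraries, and 2.91 and 3.81 without them, and did not pass either way (adjusted p = 0.0605 and 0.224 without them). With all libraries of old rat 2 left out, ENSRNOT00000036435 was called (2.86, adjusted p = 0.0441). The old organ ratio of efficiency of the 4 was 1.69 to 3.39 from all means, and 12.9, 7.88, 7.04 and 14.3 without those brain libraries, in the order in which the transcripts were introduced. In liver their efficiency was 1.14 to 1.32 in old and 0.919 to 1.13 in young rats.

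The 5 members with RNA-seq CPM within 3-fold between organs were led by ENSRNOT00000055628. It had the largest ratio of the whole set in young rats and, with all libraries, in old rats. Without the brain libraries of old rat 2 its old ratio was 11.3, below those of ENSRNOT00000001863 and ENSRNOT00000024622. Its footprints in liver were 100.1, 83.6 and 96.4 CPM in old and 115, 208 and 216 CPM in young rats, against 7.42, 8.52 and 5.81 CPM in old and 3.48, 3.18 and 1.56 CPM in young brains. RNA-seq in liver was 137, 159 and 145 CPM in old and 207, 309 and 288 CPM in young rats, against 86.2, 106 and 150.1 CPM in old and 107, 111 and 135 CPM in young brains. In CPM, footprints of the organs did not overlap at either age, whereas old RNA-seq did. The old log2 difference in efficiency was 3.30 (SE 0.299, edgeR adjusted p = 6.71e-05), higher in liver in 3 of 3 old rats. In brain its efficiency was 0.0640 in old and 0.0237 in young rats, and in liver it was 0.635 and 0.670.

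ENSRNOT00000050675 had 13.4, 11.9 and 23.8 footprint CPM in old liver and 1.14, 1.60 and 1.23 CPM in old brain. Its old RNA-seq was 13.3, 15.4 and 21.9 CPM in liver and 8.77, 9.27 and 7.77 CPM in brain, and neither assay overlapped between organs. The log2 difference in efficiency was 2.58 (SE 0.350, edgeR adjusted p = 0.000724), and the ratio of 6.10 in old rats stood beside 5.19 in young rats. ENSRNOT00000036813 was the only member with an efficiency above the median of all transcripts in brain, at 1.63 in old brain, and in liver it reached 7.31 in old and 5.24 in young rats. Its old footprints were 94.5, 85.7 and 61.1 CPM in liver and 14.3, 20.9 and 23.2 CPM in brain, on RNA-seq levels of 10.1 to 12 CPM in liver and 8.9 to 15.2 CPM in brain. In CPM, RNA-seq therefore overlapped between the organs and footprints did not. The log2 difference was 2.15 (SE 0.372, edgeR adjusted p = 0.00328), and without old rat 1 it was 1.93 and not called (adjusted p = 0.0836). ENSRNOT00000006122 and ENSRNOT00000048446 were called as well, with log2 differences of 1.94 (SE 0.247, adjusted p = 0.000508) and 1.65 (SE 0.316, adjusted p = 0.00534). Under the scaling factors of the tests, old RNA-seq of all 5 was called higher in liver, by log2 0.62 to 2.05 (edgeR, adjusted p under 0.05). With library totals alone ENSRNOT00000006122 was called lower in RNA-seq, and ENSRNOT00000055628 and ENSRNOT00000036813 were not called.

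Among members with at least 5 footprint CPM in a young organ, 2 had lower RNA-seq CPM in liver in every rat and overlapping footprint CPM. Some members with fewer footprints also had less RNA in liver. In young rats 5 of the 19 members had RNA-seq CPM at least 2 times lower in liver. The median young RNA-seq ratio of liver over brain was 0.531 over the 7420 transcripts. For 4 of the 19, RNA-seq made up most of the young log2 difference in efficiency, which chose the members. ENSRNOT00000025093 had 24.9, 25.5 and 36.0 RNA-seq CPM in old liver and 174, 163 and 186 CPM in old brain. In young rats it had 20.3, 35.8 and 30.7 CPM in liver and 185, 154 and 154 CPM in brain, so RNA-seq did not overlap at either age. Its footprints were 29.7, 36.4 and 42.9 CPM in old liver and 48.9, 47.5 and 39.5 CPM in old brain, and 20.1, 43.6 and 48.3 CPM in young liver and 42.9, 46.0 and 47.4 CPM in young brain. The organs overlapped in footprint CPM at both ages. ENSRNOT00000051368 behaved alike, with RNA-seq of 11.7 ± 3.37 CPM in old liver and 69.9 ± 3.76 CPM in old brain, and footprints of 24.3 ± 5.34 and 27.5 ± 2.47 CPM (SD, n = 3 each). The log2 differences in efficiency in old rats were 2.29 for ENSRNOT00000025093 (SE 0.178, edgeR adjusted p = 3.46e-05) and 2.42 for ENSRNOT00000051368 (SE 0.216, adjusted p = 6.18e-05), each higher in liver in 3 of 3 old rats. Both transcripts were called in each of the 14 alternatives of that test, and their old ratios of 4.85 and 5.29 stood beside 4.67 and 4.56 in young rats.

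These 2 transcripts carry the same value of 93 in the length-like column, and their levels moved together. ENSRNOT00000025093 had 2.32 to 2.76 times the RNA-seq counts of ENSRNOT00000051368 over the 12 RNA-seq libraries and 1.38 to 1.68 times its footprints over the 12 footprint libraries. Whether they share sequence, and so reads, was not tested. ENSRNOT00000052088 and ENSRNOT00000044723 share a value of 141, with an RNA-seq ratio of 0.174 to 0.290. ENSRNOT00000024658 and ENSRNOT00000036435, with 641 and 583, had an RNA-seq ratio of 1.02 to 1.54 over both organs. No member matched another transcript count for count over the 24 libraries. Over all members the column had a median of 419, against 469 over the 7420 transcripts, and ran from 93 to 1334, within limits that the choice of members set.

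The remaining 8 members had under 5 footprint CPM in both young organs, and their ratios rest on few counts. Of these, 3 were called in old rats. ENSRNOT00000042722 had 0.654, 1.27 and 1.82 footprint CPM in old liver and 1.14, 0.128 and 0.112 CPM in old brain, from 7, 16 and 28 counts and 6, 2 and 1 counts. The organs overlapped through old rat 1. RNA-seq was 42.1, 38.4 and 40.5 CPM in old liver and 91.6, 84.0 and 90.2 CPM in old brain, so the transcript was abundant in RNA and nearly free of footprints in both organs. Its old log2 difference of 3.12 (SE 0.608, edgeR adjusted p = 0.00587) was 2.54 without old rat 2 (adjusted p = 0.108) and 2.52 without old rat 3 (adjusted p = 0.0835), and the call was lost both times. ENSRNOT00000044723 and ENSRNOT00000052088 had log2 differences of 1.81 (SE 0.266, adjusted p = 0.00115) and 2.15 (SE 0.423, adjusted p = 0.00615), and the second was 2.16 without old rat 2 and not called (adjusted p = 0.0930).

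ENSRNOT00000008094 went the other way in old rats. It had 1, 0 and 1 footprint counts in old liver and 4, 2 and 13 in old brain, and 1, 2 and 1 in young liver and 1, 0 and 0 in young brain. Its RNA-seq was 54.5 ± 4.54 CPM in old liver and 119 ± 4.85 CPM in old brain, and 44.1 ± 5.19 CPM in young liver and 121 ± 3.45 CPM in young brain (SD, n = 3 each). From pooled counts the organ ratio of efficiency was 0.177 in old rats, with a 95% exact Poisson interval of 0.0200 to 0.734, and 6.93 in young rats, with an interval of 0.686 to 341. The intervals cover counting error only. The old log2 difference was -2.48 (SE 1.12, edgeR adjusted p = 0.164) with all libraries and -3.21 (adjusted p = 0.0254) without the brain libraries of old rat 2.

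ENSRNOT00000044142 had 4, 1 and 9 footprint counts in old liver and 6, 0 and 0 in old brain, and 0, 1 and 13 in young liver and 0 in all 3 young brains. With a floor of 3 counts set for the young brain libraries, its pooled organ ratio of efficiency was 4.02. This only describes values that chose the transcript. No interval was given for the young liver counts, of which 13 came from young rat 3. ENSRNOT00000022092 had 23, 23 and 63 counts in old liver and 29, 11 and 35 in old brain, and 19, 42 and 47 in young liver and 13, 0 and 0 in young brain. Its old ratio was 0.692 and its old log2 difference -0.28 (SE 0.786, adjusted p = 0.872). ENSRNOT00000018751 and ENSRNOT00000051652 had log2 differences of 0.76 (SE 0.761, adjusted p = 0.571) and 0.72 (SE 0.303, adjusted p = 0.136), and neither was called. In old brain the footprint means of these 5 uncalled members lay between 0.380 and 4.44 CPM.

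**Figure D5:**
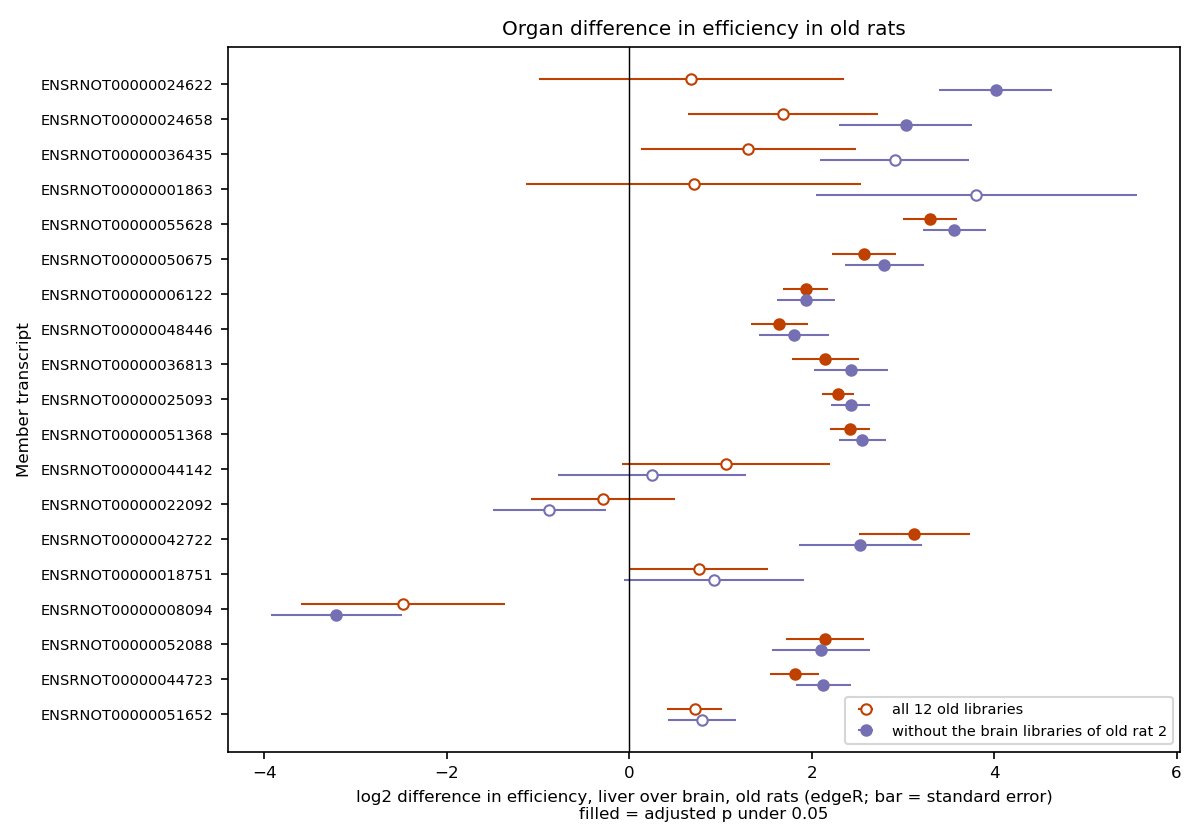
The log2 difference in efficiency, liver over brain, in old rats for each member, with standard errors, from all 12 old libraries and without the brain libraries of old rat 2. Filled symbols have an adjusted p under 0.05. The 4 transcripts at the top, not called by the full fit, move to the right without those libraries. The members that the full fit called stay within 0.6 of it.

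In old rats each assay was also tested between the organs on its own, and the direction in RNA-seq depended on the scaling for part of the members. In footprints 14 members were called higher in liver than in brain and 0 lower, against 31.7% and 34% of 10820 transcripts. In RNA-seq 12 were called higher and 2 lower, against 38.1% and 38.6% of 10839. The median log2 difference of the members was 2.55 in footprints and 0.71 in RNA-seq, against -0.02 and -0.01 over all tested. These directions hold relative to the typical transcript. With library totals alone in place of scaling factors, the median of all tested transcripts was -1.13 in footprints and -1.11 in RNA-seq. The members called were then 8 higher and 1 lower in footprints, with backgrounds of 14.8% and 65.3%, and 6 higher and 9 lower in RNA-seq, with backgrounds of 15.9% and 70.1%. The count for efficiency was 10 under both scalings, with backgrounds of 3.89% higher and 7.01% lower under library totals. Without the brain libraries of old rat 2 the counts were 14 higher and 1 lower in footprints, with backgrounds of 28.9% and 30.6%, and 12 higher and 2 lower in RNA-seq, with backgrounds of 35% and 35.7%.

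By the size of the old difference, ENSRNOT00000024622 led both assays, with 6.61 in footprints (SE 1.98, edgeR adjusted p = 0.0384) and 5.93 in RNA-seq (SE 0.493, adjusted p = 7.12e-05). The footprint call was lost without old rat 1 (6.03, adjusted p = 0.0807) and without old rat 3 (6.23, adjusted p = 0.107), and the value was 10.4 without the brain libraries of old rat 2. ENSRNOT00000036435 had 6.27 in footprints (SE 1.31, adjusted p = 0.0123), a call lost without old rat 3 (6.16, adjusted p = 0.0623). ENSRNOT00000001863 had 5.01 in RNA-seq (SE 0.957, adjusted p = 0.0052), and its 5.71 in footprints missed the threshold (SE 1.89, adjusted p = 0.0515) but passed with the animal as a block (6.73, adjusted p = 0.0315). Among members called with a mean log2 CPM of at least 0, the lowest in both assays were ENSRNOT00000025093 and ENSRNOT00000051368, with -1.50 in RNA-seq for each (adjusted p = 1.22e-05 and 5.58e-05) and 0.79 and 0.93 in footprints (adjusted p = 0.00221 and 0.00162). Their footprint differences were -0.32 and -0.17 under library totals alone, so that direction depends on the scaling, and the direction in RNA-seq does not.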

How the data were processed

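Ribosome profiling and RNA-seq of liver and brain from old and young rats were deposited as 1 file per library, with whole-number counts for 22938 transcripts that the authors did not normalise. A length-like column of another, undefined unit stands beside the deposited counts. Build rn4, DESeq, TopHat2 2.0.10 and Bowtie 1.0.0.0 are listed in the submitters' processing notes, without the role of each. The annotation and the counting rule were not given in the sources used here. RNA-seq used a stranded kit and footprints came from RNase I digestion, per the labels' protocols.

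CPM were taken of each library's total. Tests in old rats used edgeR 4.0.16 in R 4.3.3 (quasi-likelihood, two-sided, TMM, Benjamini-Hochberg over all transcripts tested, adjusted p under 0.05), on transcripts with a mean of at least 1 RNA-seq CPM in both old organs, a filter that all 19 members pass and that does not use footprints. The main edgeR fit of each comparison was run on simulated counts, drawn for each library on its own. These counts hold no link between libraries of the same animal, and the other tools and the block were not simulated. Alternatives used DESeq2 1.42.0, limma 3.58.1, other scalings and filters, an animal block and left-out animals; library totals alone were added after seeing the data. Libraries with the same animal code deviated together within an organ in old rats (correlations of 0.566 to 0.804 between the assays in liver and 0.554 to 0.893 in brain), and between organs at -0.071 to 0.216. The main fits did not use this pairing. In the interaction fit the animal block is common to both organs, so it does not model a link within an organ. Counts come from PCR reads, so intervals and floors cover counting error only.

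The members, kinds and tests were chosen with earlier results of these data known. The naming rule took, per comparison, the 2 largest and the 2 smallest differences in old rats (for footprints and RNA-seq, among members called with a mean log2 CPM of at least 0) and the 2 members with most RNA in young brain. The other members named were chosen after their values were seen.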

Additional observations from a re-analysis of the deposited data

Results flagged for a closer look

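ENSRNOT00000008094 had a lower efficiency in liver than in brain in each old rat and a higher one in each young rat. Its log2 ratios of liver over brain were -1.25, -0.91 and -2.50 in old rats 1, 2 and 3, and 1.48, 3.56 and 2.38 in young rats. The difference between the ages was not tested, since the young values chose the transcript. It rests on 19 brain and 2 liver footprint counts in old rats, and 1 brain and 4 liver counts in young rats. The brains of young rats 2 and 3 and the liver of old rat 2 had 0 counts, so those ratios rest on the added 0.05 CPM. In young rat 1 footprints were nearly equal, at 0.084 CPM in liver and 0.077 CPM in brain, on RNA-seq of 46.1 and 122 CPM.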

How the results depend on the processing

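In young rats the rule found 19 transcripts, the members. With 0.5 added to the footprint CPM it found 13, of which 12 were members. With TMM-scaled CPM it found 29, of which 15 were members. Without young rats 1, 2 and 3 it found 18, 24 and 22, of which 16, 18 and 15 were members. At a fold of 3 it found 38 and with RNA-seq of at least 2 CPM 32, and both lists held all 19 members. At a fold of 6 it found 7, all members. The number of members meeting the rule in old rats was 6 with 0.5 added to the footprint CPM, against 7. It was 6 to 12 without 1 old rat, and 12 without the brain libraries of old rat 2. Members called for efficiency, all higher, were 9, 11 and 9 without old rats 1, 2 and 3, where 0.795%, 2.13% and 4.58% of all transcripts were called higher. They were 13 without the brain libraries of old rat 2 (12 higher, with 3.24% of all, and 1 lower, with 4.86%). They were 10 under each other alternative, DESeq2, limma-voom and the replicate block included, and the block called the same 10. The share of all transcripts called higher ran from 3.5% (no filter) to 8.99% (DESeq2) over these alternatives, and was 6.47% with the block. Footprint calls between organs were 9 with library totals, against 14. They were 10 to 14 without 1 old rat and 15 with the block, all higher, where 25.4% to 28.4% and 30.3% of all were. RNA-seq calls were 12 to 14 without 1 old rat (10 to 12 higher, with 31.1% to 35.6% of all) and 14 with the block (12 higher, with 36.8%). Calls within liver were 7 to 13 without 1 old rat (5 to 8 lower, with 11.3% to 22.2% of all) and 18 with the block (10 lower, with 33.3%), against 12. Within brain they were 13 to 18 (12 to 17 lower, with 27.9% to 31.8%) and 15 (14 lower, with 34.6%), against 14. The comparison within liver uses no brain library, so it has no value without those of old rat 2.

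Among called members, directions turned with library totals alone. In RNA-seq, ENSRNOT00000006122 and ENSRNOT00000051652 were -0.48 and -0.47 and called lower, and ENSRNOT00000044142 and ENSRNOT00000036813 were -0.39 and -0.12 and not called. In footprints, ENSRNOT00000025093 and ENSRNOT00000051368 were -0.32 and -0.17 and not called. Uncalled values below are of all members for efficiency and of 9 members otherwise. For efficiency, ENSRNOT00000044142 ran from -0.057 to 5.47 without 1 old rat. ENSRNOT00000022092 was 0.37 by limma-voom and 0.34, -0.96 and 0.073 without old rats 1, 2 and 3. In RNA-seq, ENSRNOT00000042722 was 0.0028 (DESeq2), 0.0031 (median-ratio factors), 0.14 (no filter), 0.16 (edgeR filter) and -0.070 to 0.047 without 1 old rat. ENSRNOT00000008094 was 0.021, 0.021, 0.16 and 0.18 under the first 4 of these, 0.024, -0.13 and 0.095 without old rats 1, 2 and 3, and 0.0030 without the brain libraries of old rat 2. With library totals, footprints of ENSRNOT00000022092 were -0.21. Within brain, ENSRNOT00000024622 was 0.043, -3.51 and 0.27 without old rats 1, 2 and 3, and ENSRNOT00000001863 ran from -3.45 to 0.039. The cause was not tested. Of 759 such values, called ones included, 682 kept direction and side of the threshold. Low counts limit the precision of the 8 members with few footprints.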
